A study of Mus musculus with 12 samples.

Results

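The genes described here are those of glucose uptake, glycolysis, lactate handling and glycogen storage, 34 of the 20352 genes measured. They were chosen by name. A gene took the deposited probesets that the platform annotation gives exactly 1 gene symbol, under its current or an older symbol (Pkm was found as Pkm2), and its value on an array was the median over those probesets. All 34 were measured, on 1 to 25 probesets each and 468 in all. Tissue came from C57BL/6J mouse hearts, with an age of 12 weeks in the labels. The infarcted group comprised 6 hearts in which the border zone, the muscle beside a myocardial infarct, was sampled 2 weeks after surgery. The sham group comprised 6 hearts with sham surgery, sampled at the corresponding site, also 2 weeks after surgery. No other treatment or genotype is given in the labels, and the series text calls the samples of a condition biological replicates. One RNA was hybridised per one-colour array, and values are read as log2 signal.

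Glucose enters muscle cells through carrier proteins, is trapped by hexokinase as glucose phosphate, and is then either stored as glycogen or split by the glycolytic enzymes to pyruvate and lactate. Most of these steps have several isozymes from separate genes. One form typically prevails in striated muscle, and others prevail in liver, brain, leukocytes or proliferating cells. The adult heart takes most of its energy from fatty acids and uses glucose, lactate and glycogen beside them. In hypoxia or growth many cells raise some of their non-muscle carriers and isozymes.

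The median signal of an array was 7.045 to 7.058 in the infarcted group and 6.997 to 7.026 in the sham group. The 66 pairs of arrays correlated between 0.956 and 0.979 over all probesets, and none was identical. Among markers of cardiomyocytes, none of 11 passed in either direction, with a median difference of -0.09, and their summed linear signal ran from 102677 to 108713 in infarcted arrays and from 109304 to 113908 in sham arrays. All 10 fibroblast markers rose, with sums of 24298 to 30998 in infarcted arrays and 10732 to 12059 in sham arrays. Of 10 macrophage and monocyte markers 9 rose, with sums of 3613 to 5366 in infarcted arrays and 2203 to 2746 in sham arrays. Of all genes 10.1% rose. None of these markers was dim (a mean under 5.26, the 30th percentile of all genes) in both groups. Each of the 3 sums separated the groups, and its part in the results below was not tested. In such bulk tissue, fewer cells of a type and less RNA per cell cannot be told apart.

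Of the 34 genes, 9 fell and 7 rose in infarcted tissue, and 18 did not pass the test (limma, adjusted p under 0.05 over all genes). The falls were mostly in forms typical of heart and skeletal muscle. They comprised the carrier Slc2a4, the hexokinase Hk2, the phosphofructokinase Pfkm, its regulators Pfkfb1 and Pfkfb2, Pgam2, Ldhb, and the glycogen genes Pygm and Gys1. The rises were in Pfkp, Pfkfb4, Pgam1, Eno1, Eno2, Ldha and the lactate exporter Slc16a3. The 16 genes called are 47.1% of the group, against 20.3% of all genes called in either direction, 10.1% called higher and 10.2% called lower. Each difference given is the infarcted mean minus the sham mean, in log2 units. Their median was -0.01 over the 34 genes and -0.04 over all genes, and the median absolute difference was 0.252 against 0.141. With each array centred on its median, 4 of the genes rose and 11 fell, and among all genes 1748 rose and 2956 fell in place of 2050 and 2074. The infarcted and sham arrays did not overlap for 10 of the 34 genes (29.4%), against 11.3% of all genes.

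**Figure D1:**
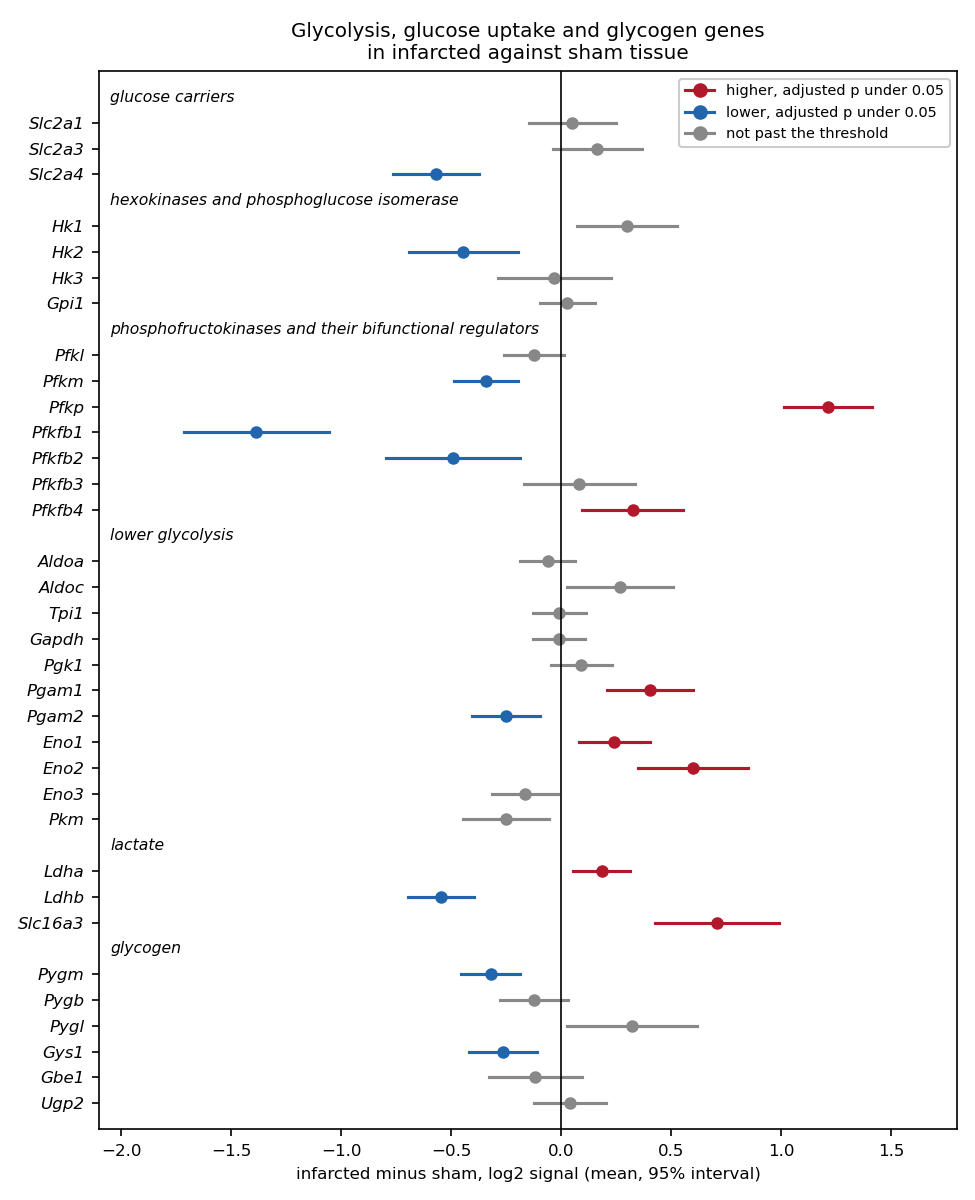
Difference of each of the 34 genes between 6 infarcted and 6 sham arrays (horizontal axis, log2 signal, infarcted minus sham), grouped by step of the pathway. Points are differences and lines are 95% intervals from the limma fit; red genes passed as higher, blue as lower, and grey did not pass, with Pfkp at 1.21 and Pfkfb1 at -1.38 the farthest from 0.

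Promoter sequences are shown for genes at the ends of this range and for the lactate dehydrogenase pair, whose members moved in opposite directions and which was picked for display after its values were seen. Each runs 5′ to 3′ on the gene's strand, from 250 bases before to 50 bases after an annotated transcript start (RefSeq, GRCm38.p6). Capitals mark ACGTG or GCGTG read on either strand, the core of the element bound by hypoxia-inducible factors. ACGTG can also lie inside an E-box, which matches CANNTG.
Pfkp, chr13:6648722-6649021, minus strand: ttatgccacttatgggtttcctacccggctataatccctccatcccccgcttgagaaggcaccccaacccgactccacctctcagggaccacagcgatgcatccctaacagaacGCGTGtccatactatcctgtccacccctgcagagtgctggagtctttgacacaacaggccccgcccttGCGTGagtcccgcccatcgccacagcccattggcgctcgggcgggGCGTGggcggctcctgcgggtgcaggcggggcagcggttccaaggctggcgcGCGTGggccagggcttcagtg
Pfkfb1, chrX:150587993-150588292, plus strand: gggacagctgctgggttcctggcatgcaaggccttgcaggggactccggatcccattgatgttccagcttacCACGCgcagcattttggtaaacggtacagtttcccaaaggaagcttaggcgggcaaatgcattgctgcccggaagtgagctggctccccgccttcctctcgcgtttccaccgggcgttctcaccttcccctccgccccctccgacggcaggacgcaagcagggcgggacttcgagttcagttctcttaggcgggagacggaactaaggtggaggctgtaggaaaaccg
Ldha, chr7:46845554-46845853, plus strand: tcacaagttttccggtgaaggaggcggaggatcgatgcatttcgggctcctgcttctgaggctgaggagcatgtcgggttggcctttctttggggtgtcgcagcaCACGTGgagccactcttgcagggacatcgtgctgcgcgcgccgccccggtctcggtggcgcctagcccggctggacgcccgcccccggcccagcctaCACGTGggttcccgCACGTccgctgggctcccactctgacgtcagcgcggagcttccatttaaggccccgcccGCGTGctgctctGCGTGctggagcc
Ldhb, chr6:142507908-142508207, minus strand: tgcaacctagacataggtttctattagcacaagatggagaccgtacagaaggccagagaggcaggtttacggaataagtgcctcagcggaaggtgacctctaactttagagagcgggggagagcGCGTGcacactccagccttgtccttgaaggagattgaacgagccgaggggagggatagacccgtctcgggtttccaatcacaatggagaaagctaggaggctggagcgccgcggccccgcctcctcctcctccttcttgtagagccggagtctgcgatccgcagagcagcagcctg

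RefSeq gave 50 such promoters for 32 of the 34 genes, and none for Slc2a3 and Slc2a4. Some promoters of the same gene overlap, as in Eno1 and Aldoa, so a match can be counted in more than 1 promoter. Counted on each strand, so that CACGTG counts as a pair, the Pfkp promoter held 4 matches to GCGTG and none to ACGTG. The Ldha promoter shown held 5 matches to ACGTG and 2 to GCGTG, while the gene's other promoter held 2 to GCGTG and none to ACGTG. That of Ldhb held 1 match to GCGTG. Pfkfb1 has 4 promoters in the table, and the one shown was the only one of them with either motif. ACGTG was present in 23 of the 50 promoters (46%) and in 19.6% of all 32851 promoters of the same length. By gene it lay in a promoter of 3 of 7 genes that rose, 4 of 8 that fell and 12 of 17 that did not pass. GCGTG was found in 26 of the 50 (52%) and in 32.4% of all promoters. By gene the counts were 5 of 7, 5 of 8 and 10 of 17. GGGCGG, the core of the element bound by Sp1, was in 26 of the 50 (52%) and in 35.7% of all, and CANNTG in 35 (70%) and 72.3%. The MEF2 motif was in none of the 50 and in 0.557% of all. These are matches of letters in a short window only.

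Among the glucose carriers, the insulin-responsive carrier of muscle and fat fell and the others did not pass. Slc2a4 (GLUT4) had a lowest, median and highest signal of 10.76, 11.10 and 11.27 in infarcted arrays, against 11.51, 11.63 and 11.73 in sham arrays. All 6 infarcted arrays lay below every sham array. The difference was -0.57 (1.48-fold lower in infarcted tissue, limma adjusted p = 0.000535), and all 13 probesets of the gene were called lower. Slc2a1 (GLUT1), the carrier of basal uptake in most cells, averaged 9.49 ± 0.20 in infarcted and 9.44 ± 0.10 in sham arrays (SD, n = 6 each). Its difference of 0.05 had a 95% interval of -0.15 to 0.25. The mean over probesets gave 0.18 and did not pass, and all 11 probesets differed upwards, by 0.02 to 0.28, with none passing. Slc2a3 (GLUT3), a high-affinity carrier of neurons and leukocytes, averaged 6.24 ± 0.12 in infarcted and 6.07 ± 0.20 in sham arrays (difference 0.16, adjusted p = 0.257). 1 of its 12 probesets was called higher.

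Hexokinases phosphorylate glucose and hold it in the cell. Hk2, the insulin-responsive form of muscle, had a lowest, median and highest signal of 9.52, 9.73 and 10.34 in infarcted arrays and 10.10, 10.29 and 10.39 in sham arrays. Infarcted replicate 2 lay inside the sham range and the other 5 infarcted arrays below it. The difference was -0.44 (1.36-fold lower, adjusted p = 0.0138), and the call ended without infarcted replicates 4 and 5 (adjusted p = 0.0688). Hk1, the form found in most tissues, differed by 0.30 (adjusted p = 0.0615), with 4 of 6 infarcted arrays above every sham array, and passed as higher in 5 of 21 settings. Hk3, a leukocyte form, had a signal of 5.63 ± 0.23 in infarcted and 5.66 ± 0.22 in sham arrays (SD, n = 6 each). Gpi1, the isomerase that follows, averaged 12.29 ± 0.06 in infarcted and 12.26 ± 0.05 in sham arrays, a difference of 0.03 with an interval of -0.10 to 0.15.

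Phosphofructokinase commits sugar to glycolysis, and of its isozymes 1 rose, 1 fell and 1 did not pass. Pfkp, the platelet form, had a lowest, median and highest signal of 9.24, 9.64 and 9.83 in infarcted arrays and 8.26, 8.43 and 8.44 in sham arrays. The groups lay far apart relative to their spread. Pfkp rose 2.32-fold (95% interval 2.02 to 2.66, adjusted p = 6.11e-07), and 23 of its 25 probesets were called higher, none lower. Its difference was 1.21 from the median over probesets and 0.91 from their mean. Pfkm, the muscle form, ran from 11.63 through a median of 11.78 to 11.92 in infarcted arrays, against 12.04, 12.09 and 12.22 in sham arrays. It fell by 0.34 (1.27-fold, adjusted p = 0.00248) with no overlap, and 17 of 23 probesets were called lower. For Pfkl, the liver form, the difference was -0.12 (adjusted p = 0.201), and each of the 6 infarcted values was under the sham mean.

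The Pfkfb genes encode bifunctional enzymes that make and break down a fructose bisphosphate which activates phosphofructokinase. Pfkfb1, known from liver and skeletal muscle, had a lowest, median and highest signal of 6.38, 6.77 and 7.36 in infarcted arrays and 7.76, 8.21 and 8.41 in sham arrays. It was the largest change of the 34 genes, 2.61-fold lower in infarcted tissue (difference -1.38, adjusted p = 2.32e-05), and all 15 probesets were called lower. Pfkfb2, the form known from heart, ran from 9.30 through 9.86 to 10.22 in infarcted arrays and from 10.15 through 10.36 to 10.55 in sham arrays. It fell by 0.49 (adjusted p = 0.0246), with 2 infarcted arrays inside the sham range. That call ended without infarcted replicate 5, infarcted replicate 6 or sham replicate 3 (adjusted p up to 0.0562). Pfkfb3, an inducible form with high kinase activity, differed by 0.08 (adjusted p = 0.683). Pfkfb4, first known from testis, ran from 5.89 through 6.15 to 6.47 in infarcted arrays and from 5.59 through 5.79 to 6.05 in sham arrays. Its rise of 0.32 (adjusted p = 0.0455) passed narrowly and was lost in 12 of 20 alternative settings, with an adjusted p up to 0.151.

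In lower glycolysis 7 of 11 genes did not pass, and the 4 that did encode mutases and enolases. Aldoa, the muscle aldolase, averaged 13.11 ± 0.04 in infarcted and 13.17 ± 0.07 in sham arrays (SD, n = 6 each). Tpi1 (triose phosphate isomerase), Gapdh (glyceraldehyde phosphate dehydrogenase) and Pgk1 (phosphoglycerate kinase) differed by -0.01, -0.01 and 0.09, and none passed (adjusted p = 0.939, 0.931 and 0.362). The 95% interval of their differences stayed within -0.13 and 0.23. Gapdh rests on 1 probeset, since 8 others are assigned to several symbols and were left out, and such bright genes have processed copies in the genome that can share sequence. Aldoc, the brain aldolase, was dim, at 5.25 ± 0.25 in infarcted and 4.98 ± 0.14 in sham arrays (difference 0.27, adjusted p = 0.111), and passed as higher in 1 of 21 settings. Pkm, pyruvate kinase of muscle and most other tissues, differed by -0.25 (adjusted p = 0.0666), and each of the 6 infarcted values was under the sham mean. Pkm passed as lower in 6 of 21 settings, among them the mean over probesets (-0.18, adjusted p = 0.0193). Its probesets, which differed by -0.32 to -0.05, were not assigned to either splice form.

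Phosphoglycerate mutase and enolase carry out the steps before pyruvate kinase. Pgam1, the form of most tissues, ran from 9.44 through 9.54 to 9.86 in infarcted arrays and from 8.95 through 9.23 to 9.32 in sham arrays. It rose by 0.40 (1.32-fold, adjusted p = 0.00602), and 5 of 6 probesets were called higher. Pgam2, the muscle form, ran from 10.16 through 10.38 to 10.50 in infarcted arrays and from 10.52 through 10.61 to 10.71 in sham arrays. It fell by 0.25 (adjusted p = 0.0233) without overlap, but the call ended in 5 of 20 alternative settings (adjusted p up to 0.0699). Eno2, the neuronal enolase, ran from 5.89 through 6.00 to 6.57 in infarcted arrays and from 5.36 through 5.53 to 5.73 in sham arrays. It rose by 0.60 (1.52-fold, adjusted p = 0.00209), and 3 of 12 probesets were called higher. Eno1, the form of most tissues, ran from 10.76 through 10.99 to 11.04 in infarcted arrays and from 10.58 through 10.70 to 10.82 in sham arrays. Its rise of 0.24 (adjusted p = 0.0344) was lost in 9 of 20 settings, with an adjusted p up to 0.0764. Eno3, the muscle enolase, differed by -0.16 (adjusted p = 0.117), with 5 of 6 infarcted arrays below every sham array, and passed as lower in 3 of 21 settings.

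Lactate dehydrogenase interconverts pyruvate and lactate. Ldhb, the heart form, had a lowest, median and highest signal of 11.14, 11.29 and 11.40 in infarcted arrays and 11.68, 11.83 and 11.92 in sham arrays. It fell by 0.54 (1.46-fold, adjusted p = 8.03e-05) with no overlap, and 6 of 7 probesets were called lower. Ldha, the skeletal muscle form, which prevails in tissues that release lactate, ran from 12.53 through 12.58 to 12.71 in infarcted arrays and from 12.31 through 12.42 to 12.48 in sham arrays. All 6 infarcted arrays lay above every sham array, yet the rise of 0.18 (adjusted p = 0.0457) was small. It did not pass in any of 12 fits that omitted an array (adjusted p from 0.0523 to 0.0933), and none of its 7 probesets passed alone. Slc16a3 (MCT4), a carrier that exports lactate, ran from 6.98 through 7.27 to 7.55 in infarcted arrays and from 6.25 through 6.52 to 7.001 in sham arrays. It rose by 0.71 (1.63-fold, 95% interval 1.34 to 1.99, adjusted p = 0.00154), and 1 infarcted array lay within the sham range. Its 8 probesets ranged from -0.35 to 1.31, 4 of them called higher.

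Of the 6 glycogen genes in the group 2 fell and 4 did not pass. Pygm, the muscle glycogen phosphorylase that releases glucose phosphate from glycogen, ran from 12.12 through 12.28 to 12.36 in infarcted arrays and from 12.53 through 12.59 to 12.65 in sham arrays. It fell by 0.32 (1.25-fold, adjusted p = 0.00224) with no overlap, and 13 of 20 probesets were called lower. Gys1, the muscle glycogen synthase, ran from 10.15 through 10.39 to 10.49 in infarcted arrays and from 10.47 through 10.63 to 10.72 in sham arrays. It fell by 0.26 (1.2-fold, adjusted p = 0.0187), with 5 of 6 infarcted arrays below every sham array. For Pygb, the brain phosphorylase, the difference was -0.12 (adjusted p = 0.26), and for Pygl, the liver phosphorylase, 0.32 (adjusted p = 0.118). Pygl passed as higher in 2 of 21 settings. One took the mean over probesets (0.20, adjusted p = 0.0342), the other omitted dim probesets (0.25, adjusted p = 0.0479). Gbe1, the branching enzyme, differed by -0.12 (95% interval -0.33 to 0.10), and Ugp2, which makes UDP-glucose for glycogen synthesis, by 0.04 (-0.12 to 0.20).

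**Figure D2:**
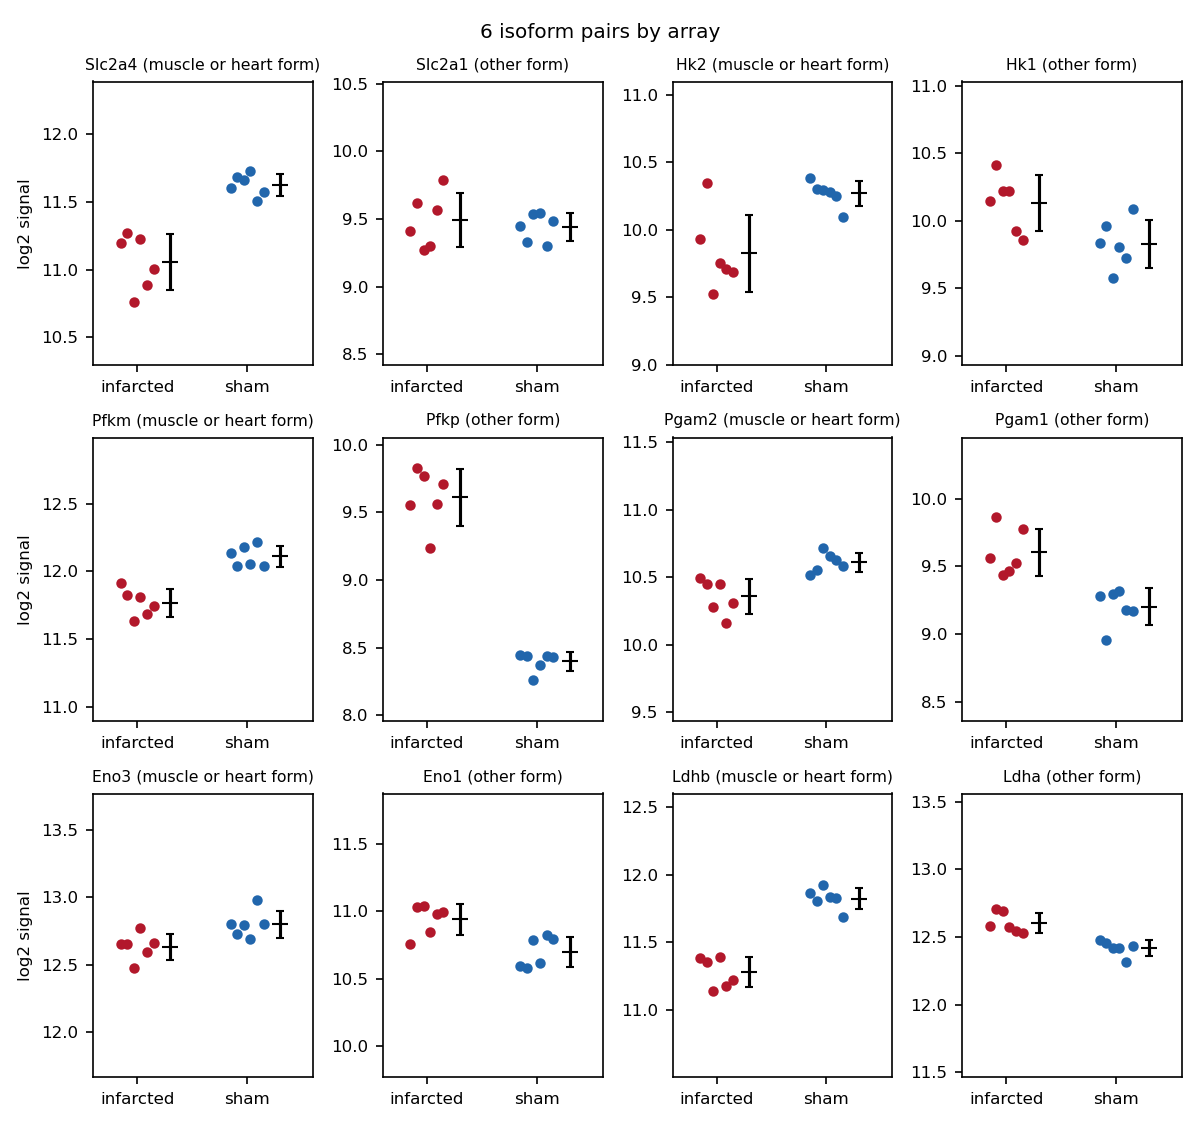
Log2 signal (vertical axes, each spanning the same range around the gene's own mean) of 6 isoform pairs on 6 infarcted (red, left) and 6 sham (blue, right) arrays. Points are arrays and black bars are mean ± SD; Pfkp spans 9.24 to 9.83 on infarcted and 8.26 to 8.44 on sham arrays, while Slc2a4, Pfkm, Pgam2 and Ldhb lie lower in every infarcted array than in any sham array.

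Whether isozymes of a step changed unequally was tested directly. For 14 pairs the log2 ratio of the muscle or heart form to another form was taken within each array, and its group difference was tested by an exact two-sided permutation of the 924 ways to choose 6 of 12 arrays, with Benjamini-Hochberg adjustment over the 14 pairs. The smallest p such a test can give is 0.00216, which is 0.00337 after adjustment here. The ratio was lower in infarcted tissue in all 14 pairs and passed in 13. In 9 pairs the infarcted arrays lay entirely below the sham arrays. No share among other pairs of genes was computed, so these counts have no background beside them. The shared direction rests on the form set on top, as with Ldhb, the heart form, over Ldha, the skeletal muscle form. The genes in the pairs were chosen with earlier results of these data known. Pairs that share a gene are not independent, and the gene fits above had used the same arrays. A ratio shows unequal change of 2 forms and not the level of either, since different probesets have different brightness.

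The ratio of Pfkm to Pfkp showed the widest shift. It ran from 1.86 through 2.08 to 2.57 in infarcted arrays and from 3.61 through 3.69 to 3.92 in sham arrays. That is a shift of -1.56 ± 0.12 (SE), or 2.94-fold (exact permutation, adjusted p = 0.00337). Its size depends on the summary of probesets, since the Pfkp difference was 1.21 from their median and 0.91 from their mean. The ratio of Ldhb to Ldha was -1.55, -1.33 and -1.18 (lowest, median, highest) in infarcted arrays and -0.75, -0.60 and -0.49 in sham arrays. Its shift was -0.73 ± 0.07, and that of Hk2 to Hk1 was -0.74 ± 0.14, each with an adjusted p of 0.00337 by the exact permutation test. Without overlap and with the same p, the ratio shifted by -0.62 ± 0.12 for Slc2a4 to Slc2a1 and by -0.73 ± 0.14 for Slc2a4 to Slc2a3. It shifted by -0.66 ± 0.09 for Pgam2 to Pgam1, -0.41 ± 0.08 for Eno3 to Eno1, -0.77 ± 0.15 for Eno3 to Eno2 and -0.64 ± 0.18 for Pygm to Pygl. A ratio could pass where its muscle form did not pass alone, as for Eno3, whose partners Eno1 and Eno2 were each called higher. The ratios were adjusted over 14 pairs and the genes over all genes, so the thresholds differ.

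The other 4 pairs that passed had overlapping arrays. They were Pfkm to Pfkl (-0.22 ± 0.05, exact permutation, adjusted p = 0.00826), Pygm to Pygb (-0.19 ± 0.06, adjusted p = 0.00826), Aldoa to Aldoc (-0.33 ± 0.11, adjusted p = 0.0152) and Pfkfb2 to Pfkfb3 (-0.58 ± 0.23, adjusted p = 0.0326). With dim probesets left out the Aldoa to Aldoc shift was -0.16 and did not pass (adjusted p = 0.411). The Pfkfb2 to Pfkfb3 call ended in 5 of 12 tests that omitted an array (adjusted p up to 0.0676). Hk2 to Hk3 did not pass (-0.41 ± 0.22, adjusted p = 0.0887). By the same exact permutation test it passed when probesets were averaged (-0.57, adjusted p = 0.00505), when dim ones were omitted (-0.64, adjusted p = 0.00606) and without infarcted replicate 2 (-0.55, adjusted p = 0.0173).

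**Figure D3:**
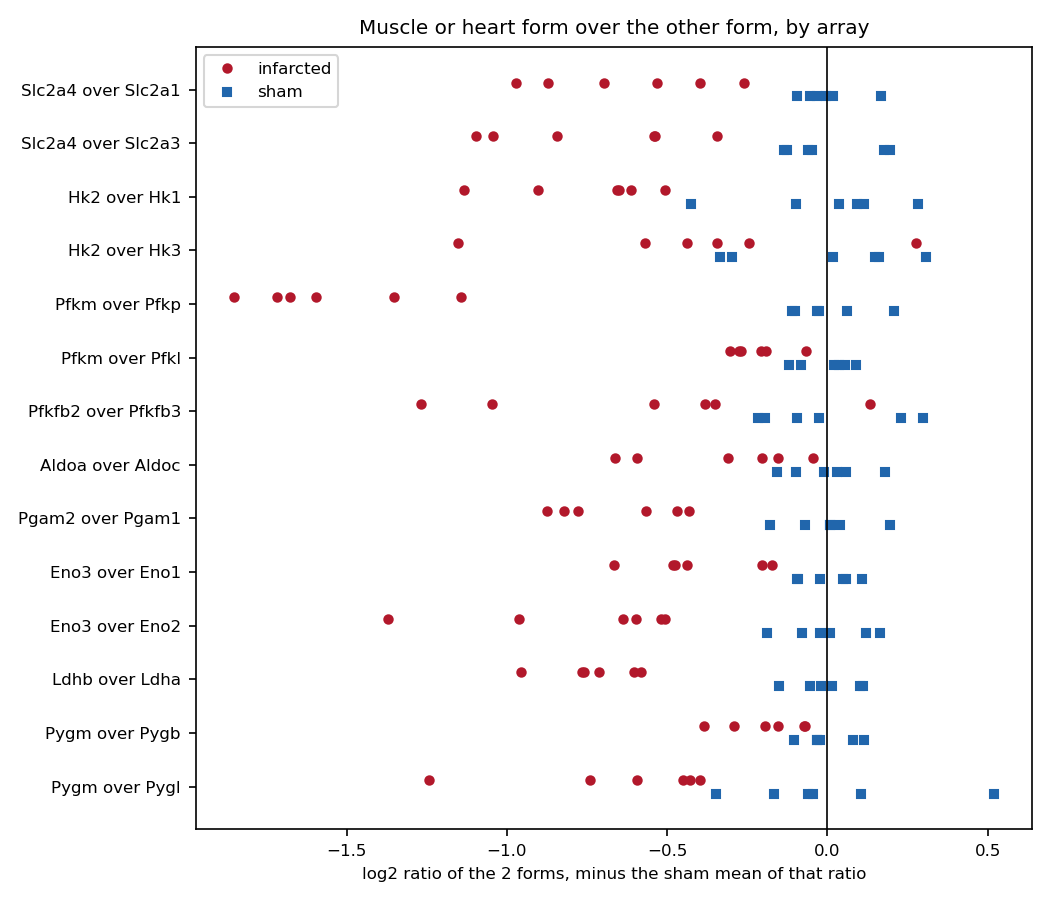
Log2 ratio of the muscle or heart form to the other form for 14 pairs, minus the sham mean of that ratio (horizontal axis), for each infarcted (red circles) and sham (blue squares) array. In 9 pairs every infarcted array lies left of every sham array, with Pfkm over Pfkp shifted farthest, by -1.56.

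Probesets cover parts of a gene, and the gene value is their median on the same arrays, so they are no independent repeat. Of the 468 probesets of these genes, 47 were called higher and 82 lower, against 10.7% of all 241576 probesets called. Every called probeset of the 9 genes that fell was lower, and every called probeset of the 7 genes that rose was higher. As the gene value comes from these probesets, this agreement was close to fixed in advance. Few probesets were called in Pgam2 (1 of 4), Eno1 (1 of 6) and Pfkfb4 (3 of 20). In Hk2 5 of 19 were called, in Pfkfb2 5 of 17 and in Gys1 5 of 16. Unequal change of probesets within a gene (limma's diffSplice, F test) passed in 3 of 33 genes tested, about the same share as the 9.3% of all genes. They were Slc16a3 (adjusted p = 3.75e-07), Pfkm (0.00458) and Eno2 (0.0318). With the replicate number as a block, Pfkm did not pass this test (adjusted p = 0.0534). This test made false calls in simulated data in which probesets differed in variance, 30.5% of its calls. A version that gives each probeset its own variance, added after seeing the data, had 4.43% false calls among its calls and named Slc16a3 (adjusted p = 0.0197) and Hk2 (adjusted p = 0.012). Pfkm (adjusted p = 0.421) and Eno2 (adjusted p = 0.221) did not pass in that version. Both shares of false calls depend on how many genes were changed in the simulation. That number was 200, against 1395 genes that passed the F test in the data, so the shares do not carry over to these data. One Slc16a3 probeset, picked as an example after its values were seen, was at 10.21 ± 0.05 in infarcted and 10.14 ± 0.23 in sham arrays (SD, n = 6 each) and differed by 0.07. Another, at 7.39 ± 0.28 in infarcted and 6.08 ± 0.39 in sham arrays, differed by 1.31.

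**Figure D4:**
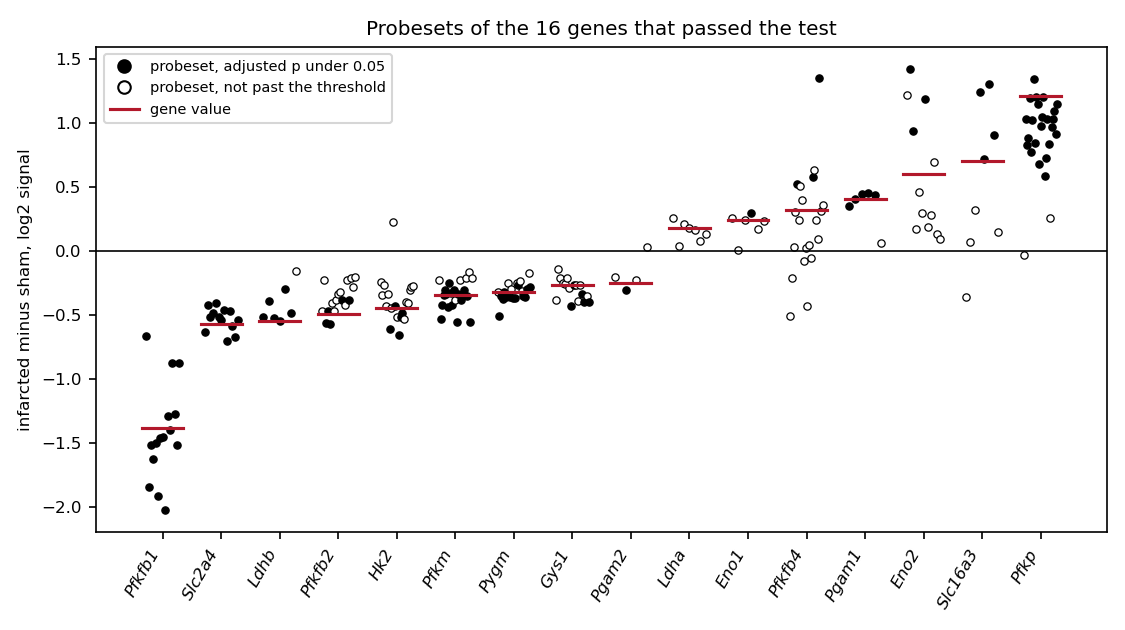
Difference of every probeset (vertical axis, log2 signal, infarcted minus sham) of the 16 genes that passed, ordered by the gene value (red line). Filled points passed over all probesets and open points did not; all 15 probesets of Pfkfb1 and 23 of 25 of Pfkp are filled, and none of Ldha.

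Other genes of the pathway were taken from lists chosen by role, and no list was tested as a set. Of all genes 10.1% rose and 10.2% fell, shares to be set beside each count. Of 15 further genes of glycolysis and glucose entry, 4 fell and 1 rose. Slc2a12, another insulin-responsive carrier, fell by 0.84, and Tbc1d4, an Akt substrate that controls the movement of GLUT4 vesicles, fell by 0.73 (adjusted p = 8.08e-06). Slc2a8 fell by 0.33. Tbc1d1, a relative of Tbc1d4, rose by 0.30 (adjusted p = 0.0309), a call made in 12 of 21 settings. Of 15 further lactate and pyruvate genes, 11 fell and 1 rose. Those that fell included Ldhd, the D-lactate dehydrogenase (-0.75) and Slc16a7, a monocarboxylate carrier (-0.71). Pdk3, a kinase that inhibits pyruvate dehydrogenase, rose by 0.87, with 6.93 ± 0.13 in infarcted and 6.06 ± 0.21 in sham arrays (SD, n = 6 each).

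Of 19 further glycogen genes, 5 fell and 1 rose, against 10.2% and 10.1% of all genes. Phkg1, the catalytic subunit of muscle phosphorylase kinase, fell by 0.96 (adjusted p = 0.000188), and Ppp1r3a, the muscle subunit that directs protein phosphatase to glycogen, by 0.67. The probesets named Pgm1 rose by 0.39 and those named Pgm2 fell by 0.25, but the annotation tables list each of these phosphoglucomutase symbols as an older name of the other, so which gene is which is uncertain. Of 6 gluconeogenic enzymes 3 fell and none rose. Fbp2, the muscle fructose bisphosphatase, fell by 0.83, and Pcx, pyruvate carboxylase, by 0.61. G6pc3, a glucose phosphatase, fell by 0.21, a call made in 9 of 21 settings.

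Of 15 genes of the side branches of glycolysis, 4 rose and 1 fell. Gfpt2 and Gfpt1, which open the hexosamine branch, rose by 0.71 and 0.29. Sord, the polyol enzyme sorbitol dehydrogenase, fell by 0.52. Of 29 regulators of glucose use, 3 rose and 7 fell, against 10.1% and 10.2% of all genes. Hif1a, the oxygen-regulated transcription factor subunit, rose by 0.58 (adjusted p = 8.56e-05) and Myc by 0.68, while Prkag1, a subunit of AMP-activated kinase, fell by 0.41. Of 12 hypoxia response genes outside glycolysis, Car9, a carbonic anhydrase, rose by 0.55 from a dim signal (5.41 ± 0.13 in infarcted and 4.86 ± 0.24 in sham arrays), and Bnip3 and Mxi1 each fell by 0.30, calls made in 13 and 10 of 21 settings.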

How the data were processed

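Total RNA of 12 hearts was labelled with biotin and hybridised to one-colour Affymetrix arrays, 6 infarcted and 6 sham, grouped by the labels. The deposited table holds log2 values per probeset, made by the authors with Affymetrix Power Tools per the submitters' processing notes. The base of the logarithm was read from the range of the values (1.52 to 14.37). For the summary method, background correction, normalization and genome build, nothing was given in the sources used here. The values appear normalized between arrays, so a shift of all genes would not be seen, and background in the signal makes fold changes of dim genes too small.

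Of 241576 probesets, 212097 carry 1 symbol in the platform annotation, 4475 several and 25004 none. Those with 1 symbol gave 20352 genes by the median, after symbols were updated through RefSeq. The test was limma's moderated linear model (version 3.58.1, R 4.3.3) over all genes or all probesets, with Benjamini-Hochberg adjustment and a threshold of 0.05. All adjusted p-values come from it except those of the isozyme ratios and of unequal probesets. The latter come from diffSplice. In the version with each probeset's own variance they come from probeset p-values combined over a gene by Simes' method. The number of arrays limits the precision. On simulated data the gene fit recovered 94.03% of changes of 1 log2 unit, 64.18% of 0.5 and 6.06% of 0.25, and called 5 of 20152 unchanged genes. Only 66 or 67 genes were changed per size, against 4124 genes called in the data. The threshold was therefore stricter in the simulation, and its rates do not carry over to these data. Alternatives were the mean over probesets, leaving out dim probesets, centring, quantile normalization, a variance trend, a replicate block and omitted arrays.

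The genes and lists were chosen with earlier results of these data known. All 34 genes are described. Of each further list, up to 3 called genes with the smallest p in either direction are named, with the smallest in a direction they leave out. Pgm2 falls outside this and was named for its symbol, after its values were seen. Some genes of the further lists are not reported here.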

Additional observations from a re-analysis of the deposited data

Results flagged for a closer look

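One of 68 groups of 6 arrays held an array far from the others by Dixon's test, where chance gives about 3.4 (5%). Hk3 was at 6.07 in infarcted replicate 3, while the other 5 infarcted arrays lay between 5.46 and 5.67. The same array had the highest summed signal of fibroblast markers (30998) and of macrophage and monocyte markers (5366), whose part in the Hk3 value was not tested.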

How the results depend on the processing

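Across 20 alternatives, the calls of Slc2a4, Pfkm, Pfkp, Pfkfb1, Pgam1, Eno2, Ldhb, Slc16a3, Pygm and Gys1 were kept in every one. The number of genes of the group that rose was 4 with arrays centred on their medians, 4 without infarcted replicates 4 and 5, and 4 to 6 with 1 array left out, with 4 reached without infarcted replicate 3, sham replicate 1 or sham replicate 2. The number that fell was 7 to 10 with 1 array left out. Genes with unequal probesets numbered 5 without a filter on dim probesets. All genes called ranged from 3123 (without infarcted replicates 4 and 5) to 5674 (mean over probesets), and from 3454 to 4138 with 1 array left out. Isozyme ratios passed in 12 to 14 pairs with 1 array left out.

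Same-numbered arrays of the groups deviated with correlations of -0.05 to 0.10, and 2 of 6 pairs matched best. The labels do not say that the numbers pair the hearts, and these values cannot exclude it. With the number as a replicate block, 3802 genes were called, 6 of the group rose, 8 fell and 10 ratios passed. Signs turned only for genes that did not pass. Hk3 was 0.19 with the mean over probesets and 0.19 with dim probesets left out, Pgk1 -0.00938 and Ugp2 -0.00854 with the mean. With arrays centred, Gpi1 was -0.016 and Ugp2 -0.00255. Without infarcted replicates 4 and 5, Pfkfb3 was -0.036 and Tpi1 0.016. With 1 array left out, Slc2a1 ranged from -0.00746 to 0.0954, Hk3 from -0.12 to 0.0297, Tpi1 from -0.0249 to 0.00203 and Gapdh from -0.01997 to 0.00436. The cause was not tested. Changes near 0.25 log2 units were mostly missed in simulation, but its rates do not carry over to these data. Some genes that did not pass may differ by that much. The limma interval of the difference included such a change for Pkm (-0.45 to -0.06) and Pygl (0.03 to 0.62), among others. It did not reach that size for Gapdh (-0.13 to 0.11), Tpi1 (-0.13 to 0.11), Gpi1 (-0.10 to 0.15) or Aldoa (-0.19 to 0.06).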

Other observations

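Of 8 smooth muscle and pericyte markers 5 rose, against 10.1% of all genes. Their summed linear signals were 14861 to 16509 in infarcted arrays and 12317 to 14632 in sham arrays. Much of these sums is Des, the brightest of the markers, at 12.92 ± 0.05 in infarcted and 12.75 ± 0.04 in sham arrays (SD). Des did not pass (limma adjusted p = 0.0537), so the sums say little about the other markers. Of 6 atrial markers 2 rose (Nppa and Dkk3), with sums of 11065 to 14688 in infarcted arrays and 2896 to 3697 in sham arrays. Most of this sum is Nppa, at 13.47 ± 0.07 in infarcted and 11.43 ± 0.19 in sham arrays (SD). Myl4, Myl7, Sln and Bmp10 did not pass, and Sln and Bmp10 were dim in both groups. The sum is therefore no measure of atrial tissue. None of 8 endothelial, 7 adipocyte, 7 neutrophil or 6 lymphocyte markers passed in limma's test. Of the neutrophil markers 6 were dim in both groups, as were 3 of the adipocyte and 1 of the lymphocyte markers. A change in these could be missed. The adipocyte sum was 1468 in infarcted replicate 5 and at most 435 in the other infarcted arrays, against 293 to 351 in sham arrays. Of 8 skeletal muscle markers 1 fell (Ckm), and Myh1, Myh4, Mylpf and Myog were dim in both groups. Ckm, at 11.88 ± 0.25 in infarcted and 12.20 ± 0.09 in sham arrays (SD), was far brighter than the others. Its fall is therefore no measure of skeletal muscle tissue. Of 3 erythroid markers 1 fell (Alas2). Their part in the changes of glucose genes was not tested.

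Infarcted replicate 3 lay farthest from the sham mean for 5 of the 9 genes that fell and 3 of the 7 that rose, and infarcted replicate 2 for another 3 that rose.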
